A study of Mus musculus with 18 samples.

Results

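The genes described here encode the enzymes that modify foreign compounds in the mouse colon. They are the cytochrome P450 genes of families *Cyp1* to *Cyp4*, the UDP-glucuronosyltransferases (*Ugt*), the glutathione S-transferases of the alpha, kappa, mu, omega, pi, theta and zeta classes (*Gst*) and the sulfotransferases (*Sult*). Members were chosen by symbol among the protein-coding rows of the count table and by a minimum of 10 counts summed over all libraries, so their presence is no finding. The symbol pattern matched 144 of the 47729 rows and 80 passed the minimum, which left 64 below it, of which 39 had 0 counts in every library. The 80 members were 42 P450 genes (2 *Cyp1*, 27 *Cyp2*, 1 *Cyp3* and 12 *Cyp4*), 21 *Gst*, 9 *Sult*, 3 *Ugt1a* and 5 *Ugt2* genes. Just inside the minimum was *Cyp4a30b* with 11 counts in all, and just outside it were *Cyp4a10* with 9 and *Cyp2a12* with 8.

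P450 enzymes oxidize lipophilic compounds, drawing electrons from P450 reductase. The transferases then attach glucuronic acid, glutathione or sulfate, which makes the product water-soluble and ready for export by membrane transporters. In the colon these enzymes sit mostly in the epithelium and meet dietary, microbial and luminal compounds, and many of them answer to the receptors AHR, PXR and CAR and to the oxidant sensor NRF2. Azoxymethane (AOM), the carcinogen of the model studied, is itself activated by oxidation, mainly by CYP2E1 of the liver.

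RNA from the colon was sequenced in 9 mice. Control WT mice (libraries 1 to 3, numbered as in the labels) were wild type and have the treatment label Control. AOM-DSS WT mice (libraries 4 to 6) were wild type given AOM and dextran sulfate sodium (DSS). AOM-DSS Claudin-2TG mice (libraries 7 to 9) carried a *Cldn2* transgene driven by the villin promoter of the intestinal epithelium and had the same treatment. AOM was given as a single dose of 10 mg/kg and DSS in 3 cycles at 2.5%, which produces colitis and then colon tumors. All mice were on a C57BL/6 background, and ages are not given in the sources used here. The protocol text with AOM and DSS stands under the Control WT samples too, so their lack of treatment rests on the treatment label. No transgenic mice without AOM and DSS were analysed here, so the transgene could be compared only under treatment.

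Each library held 14142711 to 22262546 counts, so the limit that a count of 0 allows, taken as 3 counts, corresponded to 0.135 to 0.212 CPM. Levels are given as CPM, counts scaled to library depth, after TMM scaling over the 9 libraries. The targeted gene was at 191, 258 and 243 CPM in Control WT, at 122, 136 and 134 in AOM-DSS WT and at 209, 217 and 249 in AOM-DSS Claudin-2TG, so the transgenic values lay above AOM-DSS WT (log2 fold change 0.78 ± 0.12 (SE), edgeR adjusted p = 0.0103) and within the Control WT range. *Cldn2* reads of the transgene and of the endogenous gene were not separated. Control WT 1 stood apart by sex: *Xist* was at 214 CPM in it and at most 0.204 CPM in the other 8 libraries. AOM-DSS WT 4 stood apart from libraries 5 and 6, with 11956 CPM of surface colonocyte markers (10 genes, such as *Car4* and *Aqp8*) against 6989 and 5306, and with 114 CPM of leukocyte markers (8 genes) against 224 and 230. The markers of epithelium as a whole (8 genes, such as *Epcam* and *Krt8*) summed to between 15272 and 20590 CPM in all libraries, and hepatocyte markers (6 genes) to between 72.4 and 117 CPM.

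The members were unequal in level. The 11 members at a mean of at least 100 CPM carried 68.2% of the summed level of all 80, a further 33 lay between 10 and 100 CPM, 16 between 1 and 10 CPM and 20 under 1 CPM. Per kilobase of the deposited gene length, the highest was *Cyp2c55*, an intestinal P450 that oxygenates arachidonic acid, at 323 CPM per kilobase, followed by *Gsto1*, a thioltransferase and dehydroascorbate reductase, at 260, by *Gstm1*, a mu-class glutathione transferase, at 175 and by *Sult1a1*, the phenol sulfotransferase, at 162. *Cyp3a13* at 41.6 CPM per kilobase was the *Cyp3* member, and *Cyp3a11*, the main hepatic *Cyp3a* enzyme, had 1 count in all and was below the minimum. Summed over all members, the level was 5031, 4931 and 4477 CPM in Control WT, 4667, 3596 and 2834 CPM in AOM-DSS WT, and 5693, 5845 and 6575 CPM in AOM-DSS Claudin-2TG. The AOM-DSS Claudin-2TG sums were above all others, and the AOM-DSS WT sums spread widely, with library 4 inside the Control WT range. In whole tissue, fewer cells of a type and less RNA per cell cannot be told apart.

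Of the 80 members, 13 had too few counts to be tested in any comparison and 62 were tested in all 3. A member is called when its Benjamini-Hochberg adjusted p over all genes tested in that comparison is under 0.05 in edgeR's quasi-likelihood test on the 6 libraries compared. A gene given as not called was not called in that test, and may have been under another setting. In AOM-DSS WT against Control WT, 8 of 65 tested members were called higher and 11 lower, that is 12.3% and 16.9%, where 8.04% and 6.92% of all 15437 genes tested were called. The 8 higher calls were 5 *Gst* genes and 3 P450 genes, *Cyp2u1*, *Cyp2b10* and *Cyp4f18*. These 3 P450 genes passed the filter on low counts only through AOM-DSS WT, the group where they were high. The share of higher calls, which includes them, is therefore no result about the members. The median log2 fold change of the tested members was -0.32, beside 0.02 over all genes. In AOM-DSS Claudin-2TG against AOM-DSS WT, 12 of 65 were called higher (18.5%, against 2.19% of all 14888 genes) and 3 lower (4.62%, against 7.35%), and the median was 0.56 beside 0.01. Among these calls, *Cyp2b10* and *Cyp4f18* (lower) and *Cyp2c23* (higher) passed that filter only through the group where they were high. In AOM-DSS Claudin-2TG against Control WT, 12 of 64 were called higher (18.8%, against 3.92% of all 15013 genes) and 2 lower (3.13%, against 6.07%), and the median was 0.15 beside 0.00. Here *Cyp2u1*, among the higher calls, passed that filter only through AOM-DSS Claudin-2TG. Every pair of these comparisons shares a group, so a member high or low in the shared libraries moves both of its differences.

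**Figure D1:**
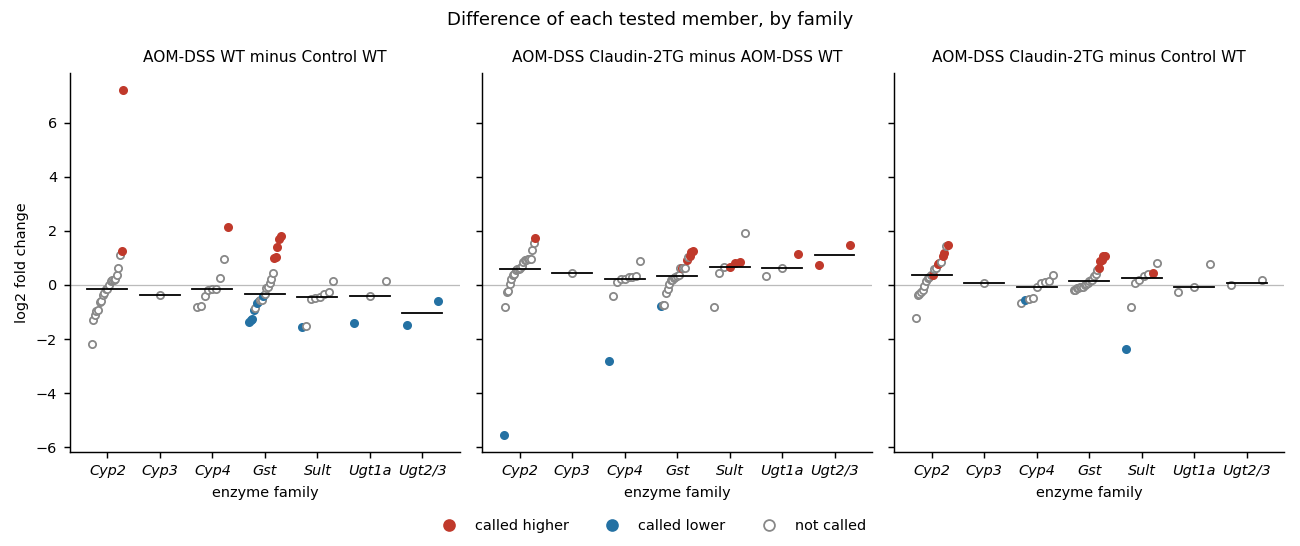
Log2 fold change (vertical axis) of every tested member by enzyme family (horizontal axis) in the 3 comparisons, with the family median as a black bar and called members filled. The *Gst* family splits in AOM-DSS WT against Control WT, with 5 of 21 members called higher and 7 lower (23.8% and 33.3%, beside 8.04% and 6.92% of all genes).

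These counts depended on single libraries. In AOM-DSS WT against Control WT, 24 members were called lower without AOM-DSS WT 4, 5 without AOM-DSS WT 5, 3 without Control WT 1 or Control WT 3 and 2 without Control WT 2. Higher calls there numbered 5 without AOM-DSS WT 5, 4 without AOM-DSS WT 6, 3 without Control WT 3 and 0 without Control WT 2, where 8 members had an unadjusted edgeR p under 0.05. In AOM-DSS Claudin-2TG against AOM-DSS WT, 29 were called higher and 6 lower without AOM-DSS WT 4, and the higher calls numbered 7 without AOM-DSS WT 6, 4 without AOM-DSS Claudin-2TG 7, 2 without AOM-DSS WT 5 and 1 without AOM-DSS Claudin-2TG 9. Without AOM-DSS Claudin-2TG 8, 0 were called in either direction, where 19 higher and 5 lower had an unadjusted edgeR p under 0.05, and without AOM-DSS Claudin-2TG 9 there were 0 lower calls, with 5 at that unadjusted level. In AOM-DSS Claudin-2TG against Control WT, 4 were called higher without Control WT 3 or AOM-DSS Claudin-2TG 8 and 5 without Control WT 2 or AOM-DSS Claudin-2TG 9, and 1 was called lower without Control WT 2, AOM-DSS Claudin-2TG 8 or AOM-DSS Claudin-2TG 9. Only edgeR was run on the fits that left out a library, and a call described as holding only without a given library was lost in each of the other leave-one-out fits. No called member changed sign in these fits or under any other setting tried. For any member whose groups do not overlap, the exact two-sided permutation test of 3 libraries against 3 gives 0.1, the smallest p it allows.

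The alpha-class glutathione transferases were higher in both AOM-DSS groups than in Control WT. These enzymes conjugate electrophiles and reduce lipid hydroperoxides, and GSTA4 prefers 4-hydroxynonenal, a product of lipid peroxidation. All 4 members were called in both comparisons with Control WT, beside 8.04% and 3.92% of all genes. *Gsta1* was at 2.74, 2.70 and 2.97 CPM in Control WT, at 7.89, 9.29 and 12.6 CPM in AOM-DSS WT and at 6.77, 6.79 and 4.03 CPM in AOM-DSS Claudin-2TG. None of the 3 groups overlapped for *Gsta1*, nor did they for *Gsta2*, and AOM-DSS Claudin-2TG lay between the other groups. The log2 fold change of *Gsta1* was 1.83 ± 0.24 (SE; edgeR adjusted p = 0.00794) in AOM-DSS WT against Control WT, -0.76 ± 0.28 (edgeR adjusted p = 0.131) in AOM-DSS Claudin-2TG against AOM-DSS WT and 1.07 ± 0.24 (edgeR adjusted p = 0.0213) in AOM-DSS Claudin-2TG against Control WT. *Gsta2* was lower throughout, at 1.20 to 1.55 CPM in Control WT, 3.58 to 5.23 CPM in AOM-DSS WT and 2.55 to 2.78 CPM in AOM-DSS Claudin-2TG, with log2 fold changes of 1.69 ± 0.27 and 0.93 ± 0.26 against Control WT (edgeR adjusted p = 0.0125 and 0.0422).

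The promoters of *Gsta1* and *Gsta2*, neighbors on chromosome 9 that differed between groups in the same way, and of *Gsta3*, which lies on chromosome 1, are shown because all 3 were called higher than Control WT in both AOM-DSS groups although they lie on separate chromosomes. The sequences are RefSeq windows on GRCm38.p6, from 250 bases before to 30 after a transcription start, in gene orientation. Capitals mark GCGTG, the core bound by AHR with ARNT, or TGACNNNGC, the core of the antioxidant response element, searched on both strands. The windows lie at chr9:78230419-78230698 (plus strand), chr9:78347116-78347395 (minus strand) and chr1:21240335-21240614 (plus strand).
Gsta1: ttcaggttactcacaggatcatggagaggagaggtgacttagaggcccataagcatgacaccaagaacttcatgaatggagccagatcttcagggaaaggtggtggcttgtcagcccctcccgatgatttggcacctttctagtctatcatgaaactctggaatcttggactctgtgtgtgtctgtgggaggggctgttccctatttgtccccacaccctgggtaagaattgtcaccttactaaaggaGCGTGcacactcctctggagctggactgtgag
Gsta2: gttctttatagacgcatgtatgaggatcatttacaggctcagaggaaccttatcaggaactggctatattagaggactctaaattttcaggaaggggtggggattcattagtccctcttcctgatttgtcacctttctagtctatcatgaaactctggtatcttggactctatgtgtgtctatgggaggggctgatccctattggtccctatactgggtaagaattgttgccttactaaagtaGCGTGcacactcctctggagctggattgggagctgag
Gsta3: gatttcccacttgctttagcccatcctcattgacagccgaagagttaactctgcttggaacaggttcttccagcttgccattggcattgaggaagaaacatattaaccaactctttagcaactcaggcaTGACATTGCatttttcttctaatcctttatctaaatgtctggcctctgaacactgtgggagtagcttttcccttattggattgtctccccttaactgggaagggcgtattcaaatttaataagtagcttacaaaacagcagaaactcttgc
The *Gsta1* and *Gsta2* sequences were 74.0% identical and both held GCGTG near the start, whereas *Gsta3* held TGACNNNGC and was 55.1% identical to *Gsta1*, near the 52.3% between the *Gsta1* and *Gstm1* sequences. Over windows of 300 bases, GCGTG was found in 21 of the 70 members with a window (30.0%) and in 35.2% of 27025 genes, and TGACNNNGC in 8 of the 70 (11.4%) and in 14.0% of the genes, so neither motif was more frequent among the members.

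*Gsta3* and *Gsta4* carried most alpha-class reads. *Gsta4* was at 35.8, 30.8 and 24.2 CPM in Control WT, 62.1, 78.1 and 98.1 CPM in AOM-DSS WT and 39.6, 53.7 and 45.0 CPM in AOM-DSS Claudin-2TG, again without overlap between groups. It was called in all 3 comparisons, at log2 fold changes of 1.40 ± 0.21, -0.78 ± 0.19 and 0.62 ± 0.16 (edgeR adjusted p = 0.0102, 0.0356 and 0.0365). *Gsta3* was at 37.2, 24.6 and 26.8 CPM in Control WT, 44.8, 59.0 and 76.5 CPM in AOM-DSS WT and 48.1, 74.7 and 63.9 CPM in AOM-DSS Claudin-2TG. Unlike *Gsta4*, *Gsta3* overlapped between the AOM-DSS groups, with 0.05 ± 0.22 between them (edgeR adjusted p = 0.940), and its log2 fold changes against Control WT were 1.03 ± 0.23 and 1.08 ± 0.20 (edgeR adjusted p = 0.0273 and 0.0133).

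Of the 50-base stretches of *Gsta1* transcripts, 90.5% also occur in *Gsta2* or other genes of the cluster, and of those of *Gsta2* 49.8%, so reads of this pair could be split or lost in counting and their separate levels are uncertain. *Gsta4* shared none. Without Control WT 2 the calls of *Gsta1*, *Gsta2*, *Gsta3* and *Gsta4* in AOM-DSS WT against Control WT were lost, with adjusted p of up to 0.106. Those of *Gsta2* and *Gsta3* were lost without Control WT 3 as well, and that of *Gsta3* also without AOM-DSS WT 5 or 6. Between AOM-DSS Claudin-2TG and Control WT, *Gsta2* was lost on leaving out any of the 6 libraries and under DESeq2, library size only, all 9 libraries in the fit and lane 1 alone (adjusted p up to 0.222). *Gsta1* was called only without AOM-DSS Claudin-2TG 9 and lost with all 9 libraries in the fit or lane 2 alone (up to 0.107). There *Gsta4* was called only without Control WT 1 or AOM-DSS Claudin-2TG 7 and lost with library size only or all 9 libraries in the fit (up to 0.133). *Gsta3* was lost without Control WT 3 or AOM-DSS Claudin-2TG 9 (up to 0.0563). The *Gsta4* call in AOM-DSS Claudin-2TG against AOM-DSS WT held only without AOM-DSS WT 4 (up to 0.138). Leukocyte markers summed to 42.0 to 91.3 CPM in Control WT and to 114 to 230 CPM in AOM-DSS WT, and to 22.3 to 51.3 CPM in AOM-DSS Claudin-2TG, and their part in the alpha-class levels was not tested.

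Most mu-class transferases, a cluster on chromosome 3, were lower in AOM-DSS WT than in the other 2 groups. Mu-class enzymes detoxify epoxides and quinones, and in people the corresponding *GSTM1* is often deleted. The 7 members lie between positions 107895821 and 108044894. In all, 5 of them, *Gstm1*, *Gstm2*, *Gstm3*, *Gstm4* and *Gstm6*, were called lower in AOM-DSS WT against Control WT and the same 5 were called higher in AOM-DSS Claudin-2TG against AOM-DSS WT (beside 6.92% and 2.19% of all genes), and 0 were called in AOM-DSS Claudin-2TG against Control WT, where the median of the 7 was -0.07 and 0 had an unadjusted edgeR p under 0.05 or were called by DESeq2. *Gstm1*, by far the highest, was at 394, 296 and 297 CPM in Control WT, 175, 129 and 98.9 CPM in AOM-DSS WT and 266, 373 and 298 CPM in AOM-DSS Claudin-2TG. The AOM-DSS WT values lay below all others. The log2 fold changes were -1.29 ± 0.22 in AOM-DSS WT against Control WT (edgeR adjusted p = 0.0139), 1.21 ± 0.22 in AOM-DSS Claudin-2TG against AOM-DSS WT (edgeR adjusted p = 0.0146) and -0.07 ± 0.15 in AOM-DSS Claudin-2TG against Control WT (edgeR adjusted p = 0.809).

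The promoters of the mu-class pair with the closest transcripts are shown for comparison with the alpha class. The *Gstm1* window is chr3:108017789-108018068 and the *Gstm3* window chr3:107969145-107969424, both on the minus strand, with capitals as above.
Gstm1: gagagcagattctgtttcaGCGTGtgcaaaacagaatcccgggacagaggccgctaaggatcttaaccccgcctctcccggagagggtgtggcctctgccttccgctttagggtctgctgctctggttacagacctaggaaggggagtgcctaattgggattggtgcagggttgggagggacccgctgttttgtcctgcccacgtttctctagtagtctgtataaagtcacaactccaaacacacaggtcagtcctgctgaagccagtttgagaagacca
Gstm3: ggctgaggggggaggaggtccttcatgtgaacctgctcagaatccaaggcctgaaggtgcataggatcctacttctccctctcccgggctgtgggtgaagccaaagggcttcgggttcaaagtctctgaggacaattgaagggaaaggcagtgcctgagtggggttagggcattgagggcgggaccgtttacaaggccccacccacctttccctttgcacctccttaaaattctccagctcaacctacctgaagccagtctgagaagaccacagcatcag
They were 57.9% identical. *Gstm1* held GCGTG far from the start and *Gstm3* neither motif, and both genes were called in the same comparisons.

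*Gstm3* was at 62.4, 51.3 and 54.4 CPM in Control WT, 29.2, 21.2 and 14.5 CPM in AOM-DSS WT and 39.9, 59.0 and 55.8 CPM in AOM-DSS Claudin-2TG, with log2 fold changes of -1.36 ± 0.23 and 1.25 ± 0.26 in the first 2 comparisons (edgeR adjusted p = 0.0144 and 0.0235). *Gstm4* differed less, at 21.9 to 25.1, 14.8 to 16.4 and 22.5 to 25.8 CPM, with -0.59 ± 0.13 and 0.63 ± 0.14 (edgeR adjusted p = 0.0239 and 0.0259). *Gstm2* and *Gstm6*, outside the rule for named genes and named after their values were seen, differed by -1.26 ± 0.26 and -0.93 ± 0.19 in AOM-DSS WT against Control WT. The other 2 mu-class genes were not called. *Gstm7* had a log2 fold change of -0.56 ± 0.17 (edgeR adjusted p = 0.0658) in AOM-DSS WT against Control WT, and was called lower there by DESeq2, with no filter, with all 9 libraries in the fit and without AOM-DSS WT 6. *Gstm5*, at 47.0 to 51.6 CPM in Control WT and 55.1 to 86.7 CPM in AOM-DSS WT, had 0.44 ± 0.18 (edgeR adjusted p = 0.127), the only positive value of the class.

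Of the stretches of *Gstm3* and *Gstm1* transcripts, 28.8% and 18.9% occur in other genes, mostly in each other and in pseudogenes, and none of *Gstm4*. *Gstm1* lost its call in AOM-DSS WT against Control WT without Control WT 2 (adjusted p = 0.0591), while *Gstm3* lost it without any one of the Control WT libraries (adjusted p up to 0.0616). Both lost it in AOM-DSS Claudin-2TG against AOM-DSS WT without AOM-DSS WT 5, AOM-DSS Claudin-2TG 8 or AOM-DSS Claudin-2TG 9 (adjusted p up to 0.0724 for *Gstm1*). *Gstm2*, *Gstm4* and *Gstm6* were lost in the first comparison without any one of the Control WT libraries and, for *Gstm2* and *Gstm4*, without AOM-DSS WT 5. In the second, *Gstm4* and *Gstm6* held only without AOM-DSS WT 4 or AOM-DSS WT 6 (adjusted p up to 0.123 and 0.0939) and *Gstm2* only without AOM-DSS WT 4 (up to 0.138). There *Gstm4* was also lost with library size only, and *Gstm2* with no filter, with at least 10 counts in each library and with lane 2 alone. Of the 10 surface colonocyte markers, 3 were called lower in the first comparison and 3 higher in the second (30.0% each, beside 6.92% and 2.19% of all genes). The part of this cell state in the mu-class difference was not tested.

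**Figure D2:**
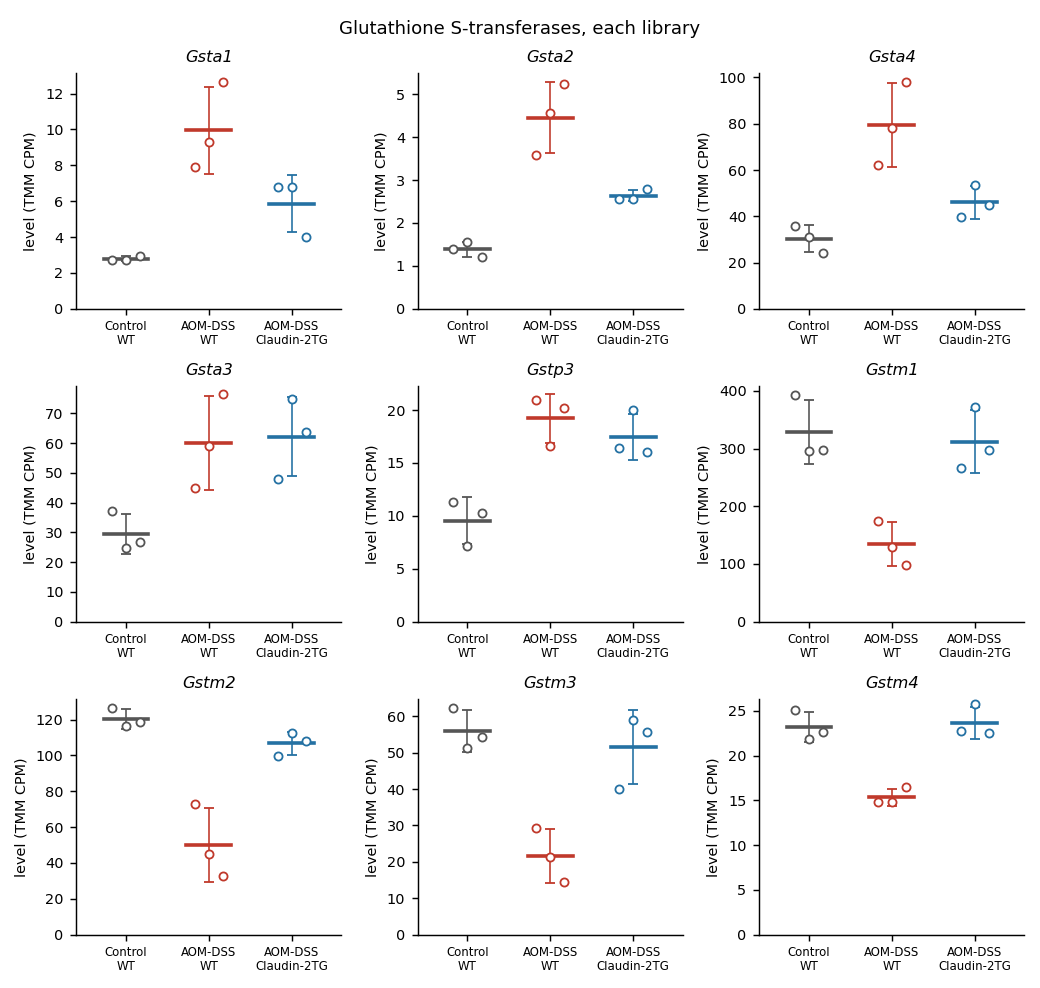
Level in TMM-scaled CPM (vertical axis) of 9 glutathione transferase genes in each library, by group (horizontal axis), with the mean as a bar and the SD as an error bar (n = 3 per group). The alpha-class genes and *Gstp3* are lowest in Control WT, whereas the mu-class genes are lowest in AOM-DSS WT.

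Among the other glutathione transferases, the pi-class gene *Gstp3* followed the alpha class. It was at 7.11 to 11.3 CPM in Control WT, 16.6 to 20.9 CPM in AOM-DSS WT and 17.5 ± 2.2 CPM (mean ± SD, n = 3) in AOM-DSS Claudin-2TG, with log2 fold changes of 1.01 ± 0.20 and 0.88 ± 0.19 against Control WT (edgeR adjusted p = 0.0198 and 0.0166). The first call was lost without Control WT 2, Control WT 3 or AOM-DSS WT 6 (adjusted p up to 0.0714) and the second without AOM-DSS Claudin-2TG 8 (adjusted p = 0.0758). *Gstp3* shares no 50-base stretch with another gene and is named after its values were seen. Its neighbor *Gstp1*, the main pi-class enzyme, was at 93.5 to 112, 82.8 to 115 and 104 to 131 CPM, and its groups overlapped in every comparison. *Gsto1* was at 545 to 578 CPM in Control WT and 406 to 446 CPM in AOM-DSS WT, a narrow but separate step of -0.40 ± 0.11 (edgeR adjusted p = 0.0437), and was back at 520 to 563 CPM in AOM-DSS Claudin-2TG with 0.33 ± 0.12 (edgeR adjusted p = 0.117), a difference called by DESeq2 and with all 9 libraries in the fit. *Gstk1*, the mitochondrial and peroxisomal enzyme, was at 56.7 to 62.3 CPM in Control WT and 30.7 to 46.9 CPM in AOM-DSS WT, with -0.68 ± 0.17 (edgeR adjusted p = 0.0346). The calls of *Gsto1* and *Gstk1* held in 1 of 6 leave-one-out fits each, that without AOM-DSS WT 4, and adjusted p otherwise reached 0.147 and 0.109. *Gsto1* was also lost with no filter and with lane 1 alone, and *Gstk1* with lane 2 alone. Of the 3 theta-class genes 0 were called by edgeR on all 6 libraries in any comparison, where in AOM-DSS WT against Control WT 1 had an unadjusted p under 0.05 and DESeq2 called 1 lower, and in AOM-DSS Claudin-2TG against AOM-DSS WT 2 had an unadjusted p under 0.05 and DESeq2 called 2 higher. In both comparisons edgeR called *Gstt3* with no filter, with all 9 libraries in the fit and without AOM-DSS WT 4, and *Gstt1* without AOM-DSS WT 4. *Gstt2* was called in the second without AOM-DSS WT 4, and against Control WT in AOM-DSS Claudin-2TG without library 7. *Gstt1* was at 32.8 to 47.5 CPM in Control WT, 11.5 to 37.5 CPM in AOM-DSS WT and 32.0 to 51.5 CPM in AOM-DSS Claudin-2TG, with -0.84 ± 0.41 (edgeR adjusted p = 0.201).

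Of the 5 UDP-glucuronosyltransferases tested, 3 were called lower in AOM-DSS WT than in Control WT, and the same 3 were called higher in AOM-DSS Claudin-2TG than in AOM-DSS WT, beside 6.92% and 2.19% of all genes. The 10 surface colonocyte markers had a median log2 fold change of -0.75 with 3 called lower in the first comparison and of 0.72 with 3 called higher in the second, and their part in the *Ugt* differences was not tested. UGT1A enzymes conjugate bilirubin, phenols and heterocyclic amines, and they share their last exons, so that reads from these exons cannot be assigned to a single gene. *Ugt1a7c* was at 105, 119 and 115 CPM in Control WT, 36.6, 52.4 and 37.1 CPM in AOM-DSS WT and 99.8, 89.6 and 93.4 CPM in AOM-DSS Claudin-2TG. Every AOM-DSS WT value was below every other value, and the AOM-DSS Claudin-2TG values were just below those of Control WT. The log2 fold changes were -1.42 ± 0.16 (edgeR adjusted p = 0.00529), 1.16 ± 0.17 (edgeR adjusted p = 0.00848) and -0.25 ± 0.09 (edgeR adjusted p = 0.117). The first was called in 6 of 6 leave-one-out fits and the second in 4 of 6, lost without AOM-DSS Claudin-2TG 8 or 9 at adjusted p of up to 0.0520. *Ugt1a6a* and *Ugt1a1*, the bilirubin transferase, were at 0.747 to 2.86 and 0.647 to 2.92 CPM and were not called, except *Ugt1a6a* in AOM-DSS WT against Control WT without AOM-DSS WT 4. Of the exon bases of *Ugt1a7c*, 54.6% lie in other *Ugt1a* genes, so the *Ugt1a7c* value may hold reads of the locus as a whole.

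The *Ugt2b* genes share a stretch of chromosome 5 with *Sult1b1*, *Sult1d1* and *Sult1e1*. UGT2B enzymes conjugate steroids, bile acids and fatty acids. *Ugt2b35* was at 36.8, 38.8 and 41.3 CPM in Control WT, 11.6, 11.7 and 18.1 CPM in AOM-DSS WT and 35.2, 42.4 and 38.6 CPM in AOM-DSS Claudin-2TG. AOM-DSS WT lay apart from the other groups, which overlapped. The log2 fold changes were -1.49 ± 0.19 (edgeR adjusted p = 0.00763) and 1.49 ± 0.19 (edgeR adjusted p = 0.00774), called in 6 of 6 and 5 of 6 leave-one-out fits, the exception being the fit without AOM-DSS Claudin-2TG 8 (adjusted p = 0.0520). *Ugt2b34*, the most abundant *Ugt*, was at 529, 537 and 500 CPM in Control WT, 388, 370 and 288 CPM in AOM-DSS WT and 572, 544 and 636 CPM in AOM-DSS Claudin-2TG, with -0.58 ± 0.14 and 0.74 ± 0.15 (edgeR adjusted p = 0.0305 and 0.0199). The first call held only without AOM-DSS WT 4 and the second only without AOM-DSS WT 4 or AOM-DSS WT 6, with adjusted p of up to 0.115 and 0.0953. The levels most like those of *Ugt2b34* over the 9 libraries were those of *Sult1b1* (Pearson r of log2 CPM 0.95), *Sult1d1* (0.93) and *Gstm3* (0.92), and those most like *Gsto1* were *Ugt1a7c* (0.96), *Gstm4* (0.94) and *Ugt2b35* (0.93), as a description over libraries that share their groups. *Ugt2b36* was at most at 0.602 CPM, and *Ugt2b5* had 46 of its 59 counts in Control WT 3, so neither was tested. Control WT 3 also had the highest sum of ileal enterocyte markers, 123 CPM against 36.0 to 62.0 CPM in the other libraries, and the part of this in *Ugt2b5* was not tested.

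Of 7 sulfotransferases tested, 3 were called higher in AOM-DSS Claudin-2TG than in AOM-DSS WT, beside 2.19% of all genes. SULT1 enzymes sulfate phenols, catechols and thyroid hormones, and SULT2B1 sulfates cholesterol. *Sult1d1* was at 223, 272 and 249 CPM in Control WT, 240, 185 and 122 CPM in AOM-DSS WT and 338, 302 and 361 CPM in AOM-DSS Claudin-2TG. The transgenic values were above all others, at 0.87 ± 0.23 against AOM-DSS WT (edgeR adjusted p = 0.0473) and 0.44 ± 0.11 against Control WT (edgeR adjusted p = 0.0271). *Sult2b1* was at 28.4 to 45.0 CPM in AOM-DSS WT and 52.8 to 66.4 CPM in AOM-DSS Claudin-2TG, with 0.80 ± 0.19 (edgeR adjusted p = 0.0342), and *Sult1c2* at 25.7 to 36.5 and 45.9 to 57.8 CPM, with 0.66 ± 0.16 (edgeR adjusted p = 0.0388). Each of these 3 calls against AOM-DSS WT held in 1 of 6 leave-one-out fits, that without AOM-DSS WT 4, with adjusted p of up to 0.161 for *Sult1d1*, 0.128 for *Sult2b1* and 0.135 for *Sult1c2* over all settings. They were also lost with library size only and with at least 10 counts in each library for *Sult1d1* and *Sult1c2*, with upper-quartile normalization for *Sult1d1*, with lane 2 alone for *Sult1d1* and *Sult2b1* and with lane 1 alone for *Sult1c2*. The *Sult1d1* call against Control WT held only without Control WT 2 or AOM-DSS Claudin-2TG 8 and was lost with library size only and with all 9 libraries in the fit (up to 0.281). *Sult1b1*, at 271 to 332 CPM in Control WT, 204 to 261 CPM in AOM-DSS WT and 307 to 324 CPM in AOM-DSS Claudin-2TG, did not overlap between AOM-DSS WT and either group but was not called (0.43 ± 0.13 against AOM-DSS WT, edgeR adjusted p = 0.0740). That difference was called by DESeq2, with all 9 libraries in the fit and without AOM-DSS WT 4. Its levels were most like those of *Sult1c2* and *Ugt2b34* (r = 0.95 each) and of *Cyp3a13* (0.92).

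*Sult1a1* had the widest spread of the abundant sulfotransferases. It was at 255, 280 and 291 CPM in Control WT, 179, 54.4 and 52.7 CPM in AOM-DSS WT and 334, 465 and 285 CPM in AOM-DSS Claudin-2TG. AOM-DSS WT was below both other groups, but library 4 lay far above libraries 5 and 6, and neither -1.53 ± 0.48 nor 1.92 ± 0.52 passed (edgeR adjusted p = 0.0757 and 0.0713). Both were called by DESeq2, with all 9 libraries in the fit and without AOM-DSS WT 4, where they reached -2.35 and 2.75. These 3 libraries ordered the same way by the sum of surface colonocyte markers (11956, 6989 and 5306 CPM), and the part of this in *Sult1a1* was not tested.

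*Sult4a1*, known from the brain and without a clear substrate, was called lower in both AOM-DSS groups. It was at 4.93, 2.65 and 5.80 CPM in Control WT, 1.71, 0.877 and 2.04 CPM in AOM-DSS WT and 0.829, 0.704 and 1.10 CPM in AOM-DSS Claudin-2TG. Control WT did not overlap with either AOM-DSS group, at -1.54 ± 0.41 (edgeR adjusted p = 0.0437) and -2.36 ± 0.35 (edgeR adjusted p = 0.00448), and only the second call held in 6 of 6 leave-one-out fits, while the first held only without AOM-DSS WT 4 and was lost with lane 1 alone (adjusted p up to 0.148). Smooth muscle markers (6 genes) summed to 1948 to 3965 CPM in Control WT, 1027 to 2940 CPM in AOM-DSS WT and 931 to 1441 CPM in AOM-DSS Claudin-2TG. In AOM-DSS Claudin-2TG against Control WT 2 of the 6 were called lower (33.3%, beside 6.07% of all genes). In AOM-DSS WT against Control WT 0 of the 6 were called, with a median log2 fold change of -0.77. The part of the muscle layer in the *Sult4a1* differences was not tested.

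**Figure D3:**
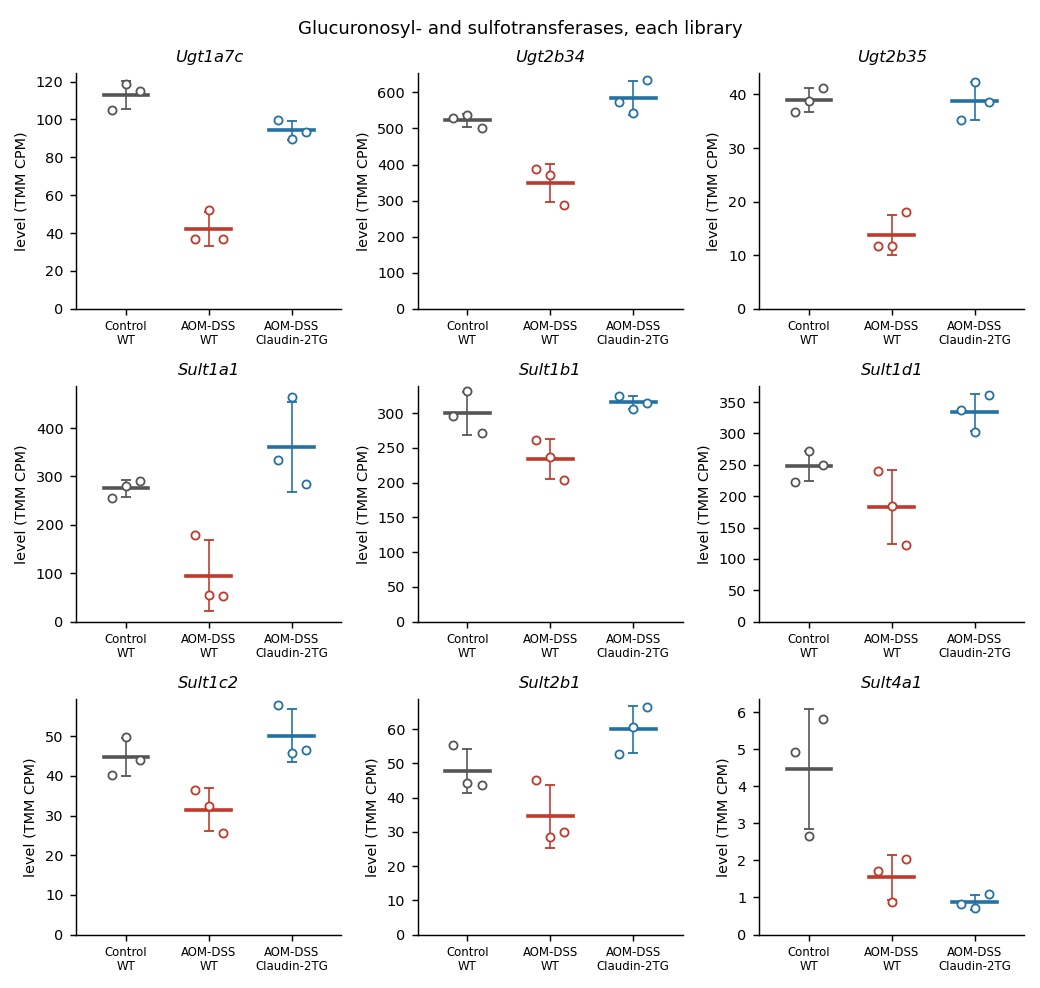
Level in TMM-scaled CPM (vertical axis) of 3 glucuronosyltransferase and 6 sulfotransferase genes in each library, by group (horizontal axis), with the mean as a bar and the SD as an error bar (n = 3 per group). *Ugt1a7c*, *Ugt2b35* and *Sult1a1* are lowest in AOM-DSS WT, and *Sult4a1* is highest in Control WT.

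Among the P450 genes, edgeR called 3 higher of 31 tested in AOM-DSS WT against Control WT (9.68%, beside 8.04% of all genes) and 0 lower (beside 6.92%), where 4 of those lower had an unadjusted p under 0.05 and DESeq2 called 1 lower. It called 1 higher and 2 lower of 32 in AOM-DSS Claudin-2TG against AOM-DSS WT (3.13% and 6.25%, beside 2.19% and 7.35% of all genes), where DESeq2 called 4 higher and 2 lower. These shares were near those over all genes, but they depended on AOM-DSS WT 4. Without that library, edgeR also called *Cyp2s1*, *Cyp4f16*, *Cyp2f2*, *Cyp2d22* and *Cyp2c69* lower and *Cyp2j6* higher in the first comparison. In the second it also called *Cyp4f13*, *Cyp2s1*, *Cyp2f2*, *Cyp2c67*, *Cyp2c68*, *Cyp2c69*, *Cyp2d9*, *Cyp2d10*, *Cyp2d12*, *Cyp2d22* and *Cyp2d34* higher and *Cyp4f40* lower. On all 6 libraries, edgeR called 6 higher and 1 lower of 30 in AOM-DSS Claudin-2TG against Control WT (beside 3.92% and 6.07% of all genes), where DESeq2 called 8 and 1. The 3 calls of the first comparison (*Cyp2u1*, *Cyp2b10* and *Cyp4f18*) and the 3 of the second (*Cyp2c23*, *Cyp2b10* and *Cyp4f18*) passed the filter on low counts only through the group where they were high, as did *Cyp2u1* in the third. The counts called on all 6 libraries in the first 2 comparisons are therefore no result about the P450 genes, and these calls are part of the totals over all members above.

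Of the 6 *Cyp2d* genes tested against Control WT, 4 were called higher in AOM-DSS Claudin-2TG, with a median of 0.58 over the 6, beside 3.92% of all genes called higher. In AOM-DSS WT 0 of 6 were called by edgeR or DESeq2, and 0 had an unadjusted edgeR p under 0.05, but *Cyp2d22*, at a log2 fold change of -0.96, was called lower without AOM-DSS WT 4, at -1.63. In AOM-DSS Claudin-2TG against AOM-DSS WT 0 of 7 were called by edgeR, where 2 had an unadjusted p under 0.05 and DESeq2 called 2 higher. Without AOM-DSS WT 4, edgeR called *Cyp2d9*, *Cyp2d10*, *Cyp2d12*, *Cyp2d22* and *Cyp2d34* higher there. *Cyp2d10* was also called there by DESeq2, with no filter and with all 9 libraries in the fit. The *Cyp2d* genes form a cluster on chromosome 15 and hydroxylate steroids, bile acids and basic drugs. *Cyp2d9*, whose expression in mouse liver is male-biased, was at 37.6, 29.8 and 25.1 CPM in Control WT, 41.7, 42.7 and 23.8 CPM in AOM-DSS WT and 56.3, 60.0 and 77.3 CPM in AOM-DSS Claudin-2TG. The transgenic values were above all others, with a log2 fold change of 1.07 ± 0.17 against Control WT (edgeR adjusted p = 0.00665), called in 6 of 6 leave-one-out fits, and 0.83 ± 0.23 against AOM-DSS WT (edgeR adjusted p = 0.0627). The latter was called by DESeq2, with no filter, with all 9 libraries in the fit, with lane 2 alone and without AOM-DSS WT 4. The *Xist*-positive Control WT 1 had the highest *Cyp2d9* level of its group. It was the only such library, so sex cannot be told apart from that mouse, and the part of sex in *Cyp2d9* was not tested. *Cyp2d10* was at 40.2 to 57.6 CPM in Control WT, 42.7 to 64.0 CPM in AOM-DSS WT and 71.4 to 101 CPM in AOM-DSS Claudin-2TG. Its log2 fold change in AOM-DSS Claudin-2TG against Control WT was 0.81 ± 0.16 (edgeR adjusted p = 0.0137), also called in 6 of 6 fits. In the same 2 groups *Cyp2d34*, the most abundant of the cluster, was at 199 to 240 and 265 to 316 CPM, with 0.38 ± 0.11 (edgeR adjusted p = 0.0464), and *Cyp2d12* at 26.4 to 47.1 and 53.1 to 70.7 CPM, with 0.77 ± 0.20 (edgeR adjusted p = 0.0482). In AOM-DSS WT libraries 4, 5 and 6, *Cyp2d34* was at 307, 208 and 152 CPM and *Cyp2d12* at 65.1, 36.7 and 19.8 CPM. Both genes thus overlapped between the AOM-DSS groups, through library 4. The *Cyp2d34* call held only without AOM-DSS Claudin-2TG 7 and the *Cyp2d12* call only without Control WT 1, with adjusted p of up to 0.363 and 0.305 over all settings. Both were also lost with library size only, at least 10 counts in each library, all 9 libraries in the fit and lane 1 alone, and *Cyp2d12* with upper-quartile normalization. *Cyp2d10* and *Cyp2d12* are named after their values were seen, and 35.8% and 21.8% of the stretches of *Cyp2d10* and *Cyp2d9* recur in other genes of the cluster.

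*Cyp2c55* varied widely within groups. It was at 521, 382 and 301 CPM in Control WT, 879, 373 and 79.3 CPM in AOM-DSS WT and 836, 750 and 1674 CPM in AOM-DSS Claudin-2TG. The transgenic values were above Control WT, at 1.44 ± 0.40, but this was not called (edgeR adjusted p = 0.0917) other than by DESeq2 and without AOM-DSS Claudin-2TG 9, and AOM-DSS WT spanned from below all others to above all but 1. Its levels in the 9 libraries were most like those of *Cyp2d34* (Pearson r of log2 CPM 0.96), *Cyp2c69* (0.90) and *Gstp1* (0.89), a description over libraries that share their groups. *Cyp2c69* was called against Control WT at 1.20 ± 0.29 (edgeR adjusted p = 0.0272), from 1.50 to 3.53 CPM in Control WT to 5.38 to 6.56 CPM in AOM-DSS Claudin-2TG, but 54.3% of its stretches recur in neighboring *Cyp2c* genes and the call held only without Control WT 1 and was lost with all 9 libraries in the fit (adjusted p up to 0.292). *Cyp2c23*, a renal arachidonic acid epoxygenase, had 23, 18 and 16 counts in Control WT, 5, 13 and 6 in AOM-DSS WT and 26, 21 and 19 in AOM-DSS Claudin-2TG. AOM-DSS WT lay below both other groups. It is counted among the calls against AOM-DSS WT, but there it passed the filter on low counts only through AOM-DSS Claudin-2TG, the group where it was high, and DESeq2 did not call it, so it is given as a description. *Cyp2c65* was at 3.08 to 12.3, 5.77 to 18.9 and 8.77 to 14.9 CPM and *Cyp2s1*, an extrahepatic P450 of epithelia, at 135 to 168, 58.2 to 147 and 145 to 269 CPM. Neither was called, but *Cyp2s1* was in AOM-DSS Claudin-2TG against AOM-DSS WT by DESeq2 and without AOM-DSS WT 4, in AOM-DSS WT against Control WT without AOM-DSS WT 4 and in AOM-DSS Claudin-2TG against Control WT with no filter. *Cyp2c65* was called in the last comparison without Control WT 3.

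*Cyp2b10*, the classic target of CAR, had reads almost only in AOM-DSS WT. Its counts were 0, 1 and 0 in Control WT, 24, 50 and 94 in AOM-DSS WT and 2, 1 and 0 in AOM-DSS Claudin-2TG. AOM-DSS WT lay above all other libraries, at 1.25 to 6.38 CPM. The depth-scaled ratio of summed counts was 187 against Control WT (95% exact interval 33.2 to 7443) and 47.4 against AOM-DSS Claudin-2TG (15.9 to 232), intervals that cover counting error only and rest on 1 and 3 counts in the lower group. *Cyp2b10* passed the minimum of counts and the filter on low counts only through AOM-DSS WT, the group where it was high, so it had to differ. It is counted among the calls above, was not tested in AOM-DSS Claudin-2TG against Control WT, and is given here as a description of its counts. *Nr1i3*, the gene of CAR, averaged 0.680 CPM in Control WT, 1.62 CPM in AOM-DSS WT and 0.712 CPM in AOM-DSS Claudin-2TG and was not called.

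*Cyp4f18*, the leukotriene B4 hydroxylase of neutrophils, was at 1.44, 0.451 and 0.645 CPM in Control WT, 2.55, 4.30 and 4.41 CPM in AOM-DSS WT and 0.829, 0.402 and 0.366 CPM in AOM-DSS Claudin-2TG. AOM-DSS WT did not overlap with the other groups, with counts of 29, 9 and 15, of 49, 98 and 65 and of 12, 8 and 5 in the 3 groups. It is counted among the calls in both comparisons with AOM-DSS WT, but 2 of 3 Control WT libraries and 1 of 3 AOM-DSS Claudin-2TG libraries reached the level of the filter on low counts. It thus passed that filter through AOM-DSS WT, the group where it was high, and is given as a description. Leukocyte markers had 5 of 8 genes called higher in AOM-DSS WT against Control WT (62.5%, beside 8.04% of all genes). In AOM-DSS Claudin-2TG against AOM-DSS WT 5 of 7 tested were called lower (71.4%, beside 7.35%). Libraries 4, 5 and 6 had sums of 114, 224 and 230 CPM, in the same order as *Cyp4f18*. The part of leukocytes in this difference was not tested.

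The *Cyp4f* genes of chromosome 17, fatty acid and leukotriene hydroxylases, gave a single call. *Cyp4f40* was at 48.4, 61.2 and 63.2 CPM in Control WT, 48.8, 52.4 and 54.3 CPM in AOM-DSS WT and 42.7, 39.9 and 35.0 CPM in AOM-DSS Claudin-2TG, with -0.55 ± 0.12 against Control WT (edgeR adjusted p = 0.0209), held only without Control WT 1 or AOM-DSS Claudin-2TG 7 (adjusted p up to 0.0911). *Cyp4f14* and *Cyp4f16* lay between 51.8 and 105 CPM and between 45.2 and 73.0 CPM in all libraries and were not called, except *Cyp4f16* in AOM-DSS WT against Control WT without AOM-DSS WT 4, nor was *Cyp4b1* at 0.395 to 1.15 CPM. *Cyp3a13*, a target of PXR, was at 114 to 153 CPM in Control WT, 78.0 to 114 CPM in AOM-DSS WT and 118 to 164 CPM in AOM-DSS Claudin-2TG, with -0.36 ± 0.17 and 0.45 ± 0.18 (edgeR adjusted p = 0.188 and 0.181).

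*Cyp2u1*, a fatty acid hydroxylase of low level, was at 0.846, 0.501 and 0.516 CPM in Control WT, 1.45, 1.45 and 1.56 CPM in AOM-DSS WT and 1.45, 2.06 and 1.61 CPM in AOM-DSS Claudin-2TG. Control WT was below both AOM-DSS groups, with counts of 17, 10 and 12, of 28, 33 and 23 and of 21, 41 and 22 in the 3 groups. It is counted among the calls in both comparisons with Control WT. There 2 of 3 Control WT libraries reached the level of the filter on low counts, so *Cyp2u1* passed it through the AOM-DSS groups, where it was high, and is given as a description.

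The P450 genes best known for activating carcinogens were not called or had too few counts. *Cyp2e1* was at 0.846, 22.3 and 2.28 CPM in Control WT, 0.416, 4.56 and 0.272 CPM in AOM-DSS WT and 0.898, 9.05 and 0.366 CPM in AOM-DSS Claudin-2TG. Within each group a single library was high, and *Cyp2e1* was not called in any comparison (edgeR adjusted p = 0.331, 0.774 and 0.710). The same libraries, 2, 5 and 8, had the highest sums of adipocyte markers (5 genes) in their groups, 132, 34.3 and 95.9 CPM, where the others had 5.93 to 26.2 CPM, and *Cyp2e1* is known to be expressed in fat as well as liver. The part of fat around the colon in these levels was not tested. *Cyp1a1* and *Cyp1b1*, the classic targets of AHR, had at most 5 and 7 counts in any library and were not tested.

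**Figure D4:**
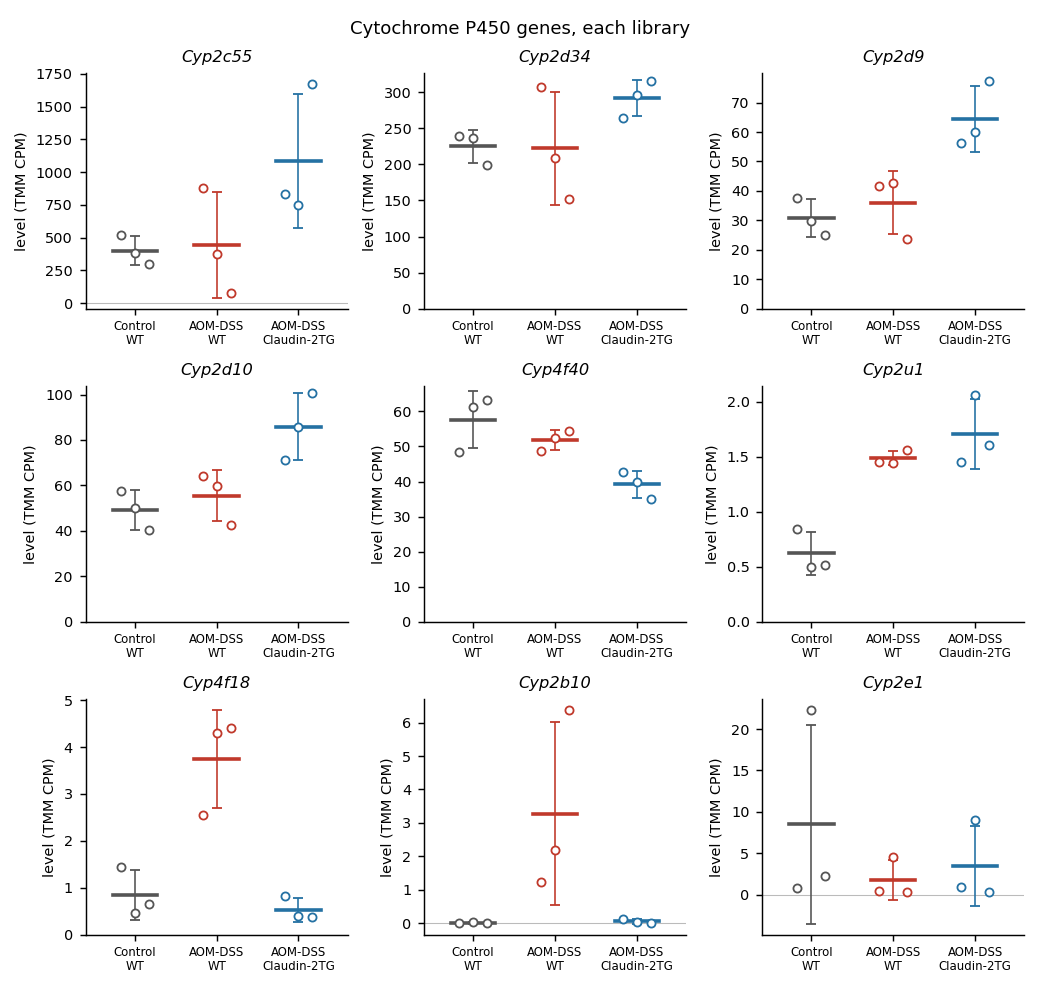
Level in TMM-scaled CPM (vertical axis) of 9 P450 genes in each library, by group (horizontal axis), with the mean as a bar and the SD as an error bar (n = 3 per group). *Cyp2d9* and *Cyp2d10* are highest in AOM-DSS Claudin-2TG, *Cyp4f18* and *Cyp2b10* in AOM-DSS WT, and *Cyp2e1* is high in 1 library of each group.

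**Figure D5:**
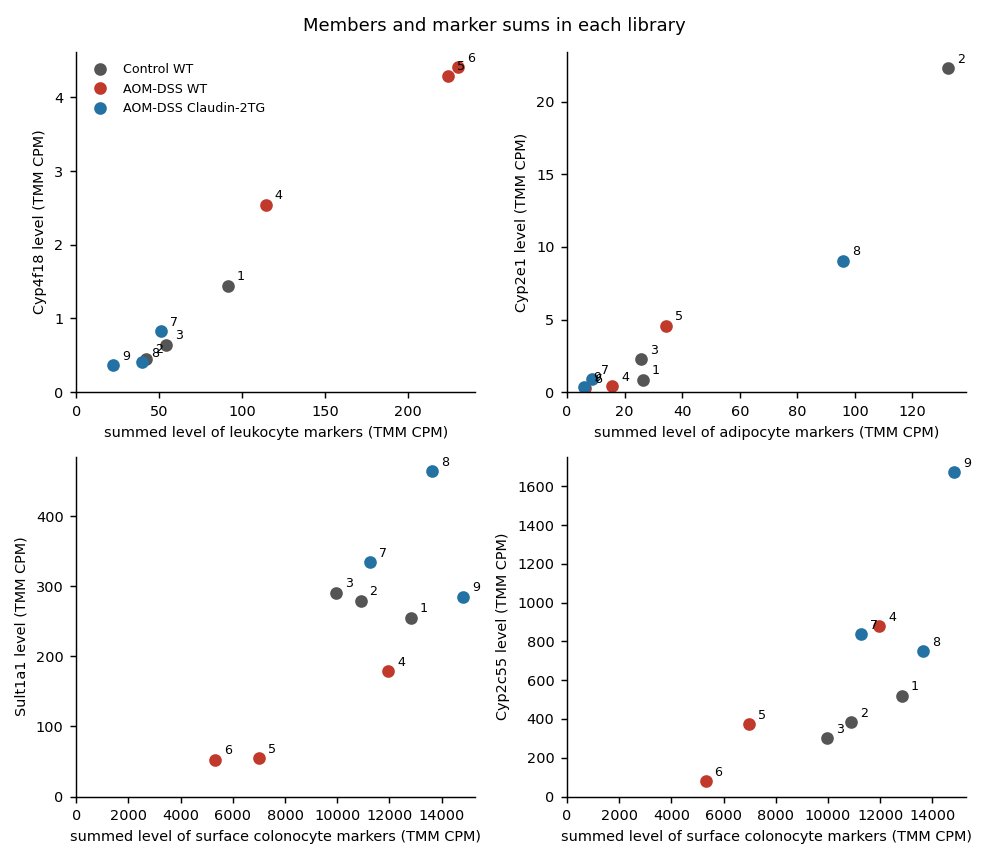
Level of 4 members (vertical axes, TMM-scaled CPM) against the summed level of cell type markers (horizontal axes, TMM-scaled CPM) in each of the 9 libraries, numbered and colored by group. *Cyp4f18* is highest in AOM-DSS WT 5 and 6, which have the highest leukocyte sums, *Cyp2e1* in libraries 2 and 8, which have the highest adipocyte sums, and *Sult1a1* and *Cyp2c55* are lowest in AOM-DSS WT 6, which has the lowest surface colonocyte sum.

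Genes around these enzymes, taken from fixed lists of the pathway, were read beside the members. Of 16 genes of xenobiotic receptors and their partners, 1 was called lower in AOM-DSS WT against Control WT (6.25%, near the 6.92% of all genes), and 2 of 15 tested higher in AOM-DSS Claudin-2TG against AOM-DSS WT (13.3%, beside 2.19%). *Nr5a2*, a nuclear receptor of crypts and bile acid synthesis, was the lower one, at 66.0 to 71.0 CPM in Control WT, 12.2 to 23.4 CPM in AOM-DSS WT and 45.3 to 52.5 CPM in AOM-DSS Claudin-2TG, called in all 3 comparisons (edgeR adjusted p = 0.00495, 0.00926 and 0.0128). The second call was lost without AOM-DSS Claudin-2TG 8 or 9 (adjusted p up to 0.0573) and the third without AOM-DSS Claudin-2TG 8 and with all 9 libraries in the fit (up to 0.181). *Hnf4a*, which drives intestinal differentiation, was at 532 to 758 CPM in AOM-DSS WT and 943 to 1017 CPM in AOM-DSS Claudin-2TG, with 0.63 ± 0.16 (edgeR adjusted p = 0.0406), which held only without AOM-DSS WT 4 or AOM-DSS WT 5 and was lost with library size only (up to 0.143). *Ahr*, *Nr1i2* (PXR) and *Nfe2l2* (NRF2) were not called in any comparison, although *Nr1i2* was higher in AOM-DSS Claudin-2TG against AOM-DSS WT by DESeq2, with all 9 libraries in the fit and without AOM-DSS WT 4, and lower in AOM-DSS WT against Control WT without AOM-DSS WT 4.

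Of 10 NRF2 targets outside the members, 1 was called higher in AOM-DSS WT against Control WT, a share near the 8.04% of all genes. It was *Hmox1*, the heme oxygenase, at 2.32 to 3.93 CPM in Control WT and 5.71 to 14.7 CPM in AOM-DSS WT (1.85 ± 0.39, edgeR adjusted p = 0.0246). It was called lower in AOM-DSS Claudin-2TG against AOM-DSS WT, at 3.04 to 3.81 CPM (-1.81 ± 0.37, edgeR adjusted p = 0.0203). Both calls held only without AOM-DSS WT 4 (adjusted p up to 0.0913 and 0.0986). The list's median log2 fold change was 0.13 in AOM-DSS WT against Control WT, beside 0.02 over all genes. *Pgd* and *Slc7a11* were not called there, except by DESeq2, with all 9 libraries in the fit and without AOM-DSS WT 4. The part of NRF2 in the alpha-class levels was not tested. *Nqo1*, a quinone reductase often read as the NRF2 marker, was at 30.5 to 42.7 CPM in Control WT and 45.2 to 51.3 CPM in AOM-DSS WT and was not called (0.47 ± 0.15, edgeR adjusted p = 0.0710) except by DESeq2, with lane 1 alone and without Control WT 1, and *Gclc* and *Gclm*, the subunits of the glutathione synthesis enzyme, were not called either.

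Of 31 other drug metabolizing enzymes, 30 were tested, and 7 were called lower (23.3%, beside 6.92% of all genes) and 1 higher (3.33%, beside 8.04%) in AOM-DSS WT against Control WT. The calls were 8 higher in AOM-DSS Claudin-2TG against AOM-DSS WT (26.7%, beside 2.19%) and 3 higher in AOM-DSS Claudin-2TG against Control WT (beside 3.92%). The 8 fell to 4 without AOM-DSS WT 5, to 1 without AOM-DSS Claudin-2TG 9 and to 0 without AOM-DSS Claudin-2TG 8, where 14 had an unadjusted edgeR p under 0.05. The 7 fell to 4 without AOM-DSS WT 6, to 3 without AOM-DSS WT 5, Control WT 1 or Control WT 3 and to 1 without Control WT 2. Without AOM-DSS WT 4 further genes were called, *Adh1*, *Aldh2*, *Mgst1* and *Xdh* in AOM-DSS WT against Control WT. In AOM-DSS Claudin-2TG against AOM-DSS WT these were *Aldh2*, *Cbr1*, *Fmo2* and *Xdh*. The 3 became 7 without AOM-DSS Claudin-2TG 7 and 0 without Control WT 2, Control WT 3, AOM-DSS Claudin-2TG 8 or AOM-DSS Claudin-2TG 9, where 9 to 13 had an unadjusted p under 0.05. *Maoa*, the monoamine oxidase, was at 722 to 875 CPM in Control WT, 385 to 557 CPM in AOM-DSS WT and 814 to 953 CPM in AOM-DSS Claudin-2TG, with -0.79 ± 0.16 and 0.96 ± 0.16 (edgeR adjusted p = 0.0206 and 0.0121). The carboxylesterase *Ces1d* showed -1.06 ± 0.21 and 1.40 ± 0.21 (edgeR adjusted p = 0.0208 and 0.00875), and the aldehyde dehydrogenase *Aldh1b1* -1.38 ± 0.17 and 1.14 ± 0.16 (edgeR adjusted p = 0.00738 and 0.00848). The first *Maoa* call held only without AOM-DSS WT 4 and the second was lost without AOM-DSS Claudin-2TG 8 or 9 (adjusted p up to 0.0738 and 0.0688). *Ces1d* was lost without Control WT 1 or 2 in the first comparison and without AOM-DSS Claudin-2TG 8 in the second (up to 0.0872 and 0.0555), and *Aldh1b1* without AOM-DSS Claudin-2TG 8 or 9 in the second (up to 0.0548). In these genes, as in *Ugt1a7c*, *Ugt2b35* and the called mu-class genes, AOM-DSS WT lay below the other groups.

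Of 14 genes supplying electrons and cosubstrates, *Papss1*, which makes the sulfate donor, and *Ugp2*, which makes UDP-glucose, were called lower in AOM-DSS WT against Control WT (-0.48 ± 0.13 and -0.39 ± 0.10, edgeR adjusted p = 0.0477 and 0.0374), that is 14.3% of the list beside 6.92% of all genes. Both calls held only without AOM-DSS WT 4, *Papss1* was lost with upper-quartile normalization, at least 10 counts in each library and lane 2 alone, and *Ugp2* with lane 2 alone (adjusted p up to 0.160 and 0.127). *Ugdh*, which makes UDP-glucuronic acid, was called higher in AOM-DSS Claudin-2TG against AOM-DSS WT (0.86 ± 0.19, edgeR adjusted p = 0.0272), which held only without AOM-DSS WT 4 or AOM-DSS WT 6 (up to 0.115). *Por*, the P450 reductase, was at 115 to 142 CPM in Control WT, 149 to 226 CPM in AOM-DSS WT and 181 to 251 CPM in AOM-DSS Claudin-2TG, and was called in AOM-DSS Claudin-2TG against Control WT (0.80 ± 0.13, edgeR adjusted p = 0.00691) but not in AOM-DSS WT against Control WT (0.57 ± 0.17, edgeR adjusted p = 0.0556), where DESeq2, no filter, all 9 libraries in the fit, lane 2 alone and leaving out AOM-DSS WT 6 called it. *Ggt1*, which cleaves extracellular glutathione, was at 0.645 to 2.80 CPM in Control WT, 11.7 to 14.0 CPM in AOM-DSS WT and 2.26 to 3.45 CPM in AOM-DSS Claudin-2TG (2.89 ± 0.45 and -2.19 ± 0.24, edgeR adjusted p = 0.0116 and 0.00426). It was the list's only higher call in the first comparison and only lower call in the second (7.14% each, near the 8.04% and 7.35% of all genes). In AOM-DSS Claudin-2TG against Control WT 2 were called higher, *Por* and *Gss* (14.3%, beside 3.92%). *Gss* held only without Control WT 1 or AOM-DSS Claudin-2TG 7, and was lost with library size only and with all 9 libraries in the fit.

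Of 12 transporters, 11 were tested and 1 was called in each direction in both comparisons with AOM-DSS WT. Each is 9.09%, beside 8.04% of all genes higher and 6.92% lower in AOM-DSS WT against Control WT and 2.19% and 7.35% in AOM-DSS Claudin-2TG against AOM-DSS WT. Without AOM-DSS WT 4, *Abcc1* and *Abcc4* were called too in both comparisons. In AOM-DSS Claudin-2TG against Control WT 2 of 11 were called higher, *Abcc2* and *Abcb1a* (18.2%, beside 3.92%). *Abcb1a* held only without Control WT 1 or AOM-DSS Claudin-2TG 8 and was lost with all 9 libraries in the fit. *Abcc2*, which exports glutathione and glucuronide conjugates, was at 1.20 to 1.34 CPM in Control WT, 6.03, 14.9 and 28.1 CPM in AOM-DSS WT and 2.42 to 3.04 CPM in AOM-DSS Claudin-2TG (3.71 ± 0.56, -2.57 ± 0.52 and 1.14 ± 0.26, edgeR adjusted p = 0.0116, 0.0251 and 0.0209). The first call was lost without Control WT 2 or 3 (adjusted p up to 0.0662), the second held only without AOM-DSS WT 4 or AOM-DSS WT 6 and was lost with no filter (up to 0.115), and the third held only without Control WT 1, AOM-DSS Claudin-2TG 7 or AOM-DSS Claudin-2TG 9 and was lost with all 9 libraries in the fit and with either lane alone (up to 0.238). Its 3 groups did not overlap and stood in the same order as those of *Gsta1*, *Gsta2* and *Gsta4*. *Abcg2*, the breast cancer resistance protein of the luminal membrane, was at 92.0 to 123, 45.2 to 70.2 and 86.9 to 103 CPM (edgeR adjusted p = 0.0208 and 0.0322 in the comparisons with AOM-DSS WT, each held only without AOM-DSS WT 4 or AOM-DSS WT 5), the order seen in *Ugt1a7c* and *Gstm1*.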

How the data were processed

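Colon RNA of 9 mice in 3 groups of 3 was measured. The authors extracted total RNA, ran each library on 2 lanes of a NovaSeq6000 and counted reads on genes with featureCounts of the Subread package. The aligner is TopHat2 in the study's methods and HISAT2 in the submitters' processing notes, which give GRCm38 as the build. Tool versions, strand and the handling of reads that match several genes are not given in the sources used here. The authors deposited raw whole-number counts for 47729 genes in 18 columns, all used here, with gene lengths. The p-values measure the spread between these mice, 3 per group, and no replicate numbers are shared between groups.

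The 2 lanes of each library were added up (chi-square per degree of freedom between lanes 0.995 to 1.06). Symbols and gene types came from GENCODE M21, which named 47310 identifiers. Each comparison was fitted on the 6 libraries of its groups over all genes with edgeR 4.0.16 (R 4.3.3): TMM scaling, filterByExpr with a minimum count of 10 and a minimum total of 15, a robust quasi-likelihood fit, and Benjamini-Hochberg adjustment at 0.05. Standard errors were derived from the test statistic. The biological coefficient of variation was 0.218, 0.217 and 0.149. The fits were tested on counts simulated with the same spread for every gene and without a deviating library. Such counts cannot show how far a call depends on a single library. Further steps used Python 3.11.15, pandas 2.3.3, scipy 1.17.1 and matplotlib 3.10.9.

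The members and the lists were chosen with earlier results of these data known. Named members were the 3 highest of each family, the 5 called members with the largest change in each direction and comparison at a mean of at least 1 CPM in a group, a textbook list, and the 3 members most alike the highest *Cyp*, *Ugt*, *Gst* and *Sult*. Other members, such as *Gstm5*, *Gstm7*, *Gstt2*, *Gstt3* and *Cyp2d22*, were named outside this rule after their values were seen, and not all are marked so. The alternatives were DESeq2 1.42.0, library size only, upper-quartile normalization, no filter, at least 10 counts in each library, all 9 libraries in the fit, each lane alone, a log2 fold change of at least 1 and leaving out each library. Where RefSeq gave several starts, the most downstream was used, and 10 members had no window.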

Additional observations from a re-analysis of the deposited data

How the results depend on the processing

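No called member changed sign under any setting, but the balance of higher and lower calls did not hold. In AOM-DSS WT against Control WT it was 8 higher and 11 lower, against 7 and 3 without Control WT 1, 3 and 3 without Control WT 3, 5 and 5 without AOM-DSS WT 5, and 8 and 6 when only log2 fold changes of 1 or more counted. The balance in AOM-DSS Claudin-2TG against AOM-DSS WT was 12 and 3, against 2 and 2 without AOM-DSS WT 5 and 0 and 0 without AOM-DSS Claudin-2TG 8. Under DESeq2, 20 members were called higher in AOM-DSS Claudin-2TG against AOM-DSS WT instead of 12. With at least 10 counts in each library, 1 was called lower there instead of 3. In AOM-DSS Claudin-2TG against Control WT, 7 were called higher with library size only and 5 with all 9 libraries in the fit, instead of 12. Requiring a log2 fold change of at least 1 left 6 lower in AOM-DSS WT against Control WT, 6 higher in AOM-DSS Claudin-2TG against AOM-DSS WT, and 5 higher and 1 lower in AOM-DSS Claudin-2TG against Control WT. Leaving out 1 library gave 0 to 9 higher and 2 to 24 lower in AOM-DSS WT against Control WT, 0 to 29 higher and 0 to 6 lower in AOM-DSS Claudin-2TG against AOM-DSS WT, and 4 to 9 higher and 1 to 2 lower in AOM-DSS Claudin-2TG against Control WT. Except where fewer libraries or genes entered by construction, the cause was not tested. Of 48 calls of single members, 45 held under DESeq2, 40 under library size only and 46 under upper-quartile normalization. On leaving out a library, 34 of 34 held without AOM-DSS WT 4, 14 of 34 without AOM-DSS WT 5, 20 of 34 without AOM-DSS WT 6, 20, 8 and 10 of 33 without Control WT 1, 2 and 3, and 15, 5 and 6 of 29 without AOM-DSS Claudin-2TG 7, 8 and 9. Library size only moved the median of all genes to -0.11 in AOM-DSS Claudin-2TG against Control WT. No paired analysis was possible because the groups share no replicate numbers. With 3 mice per group and 14142711 to 22262546 counts per library, depth was a limit for the 20 members at a mean under 1 CPM, of which 5 had enough counts to be tested in AOM-DSS WT against Control WT.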
